A study of Mus musculus with 8 samples.

Results

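The p53 target genes described here are Mdm2, Ccng1, Zmat3, Phlda3, Eda2r, Sesn2, Aen, Trp53inp1, Rps27l and Perp, which the p53 protein activates and which are known mainly for tasks other than carrying out apoptosis. The grouping is a working one, since Aen and Perp were also described as contributors to apoptosis. The genes were found by mouse symbol in 1 table of 21757 genes and by upper-case human symbol (TP53INP1 for Trp53inp1) among the 60237 genes of a second set of tables, and all 10 were present in each. Polyadenylated RNA was measured with a custom form of Smart-seq2, a full-length cDNA method, in 2 separate experiments with 2 libraries in each group. The first experiment set Ctnnb1-ex3 organoids against WT organoids, both grown from mouse small intestine. The name Ctnnb1-ex3 usually denotes an allele of Ctnnb1, the gene of β-catenin, whose exon 3 can be removed so that the protein is no longer marked for destruction; the labels give the name alone. Per the labels, Ctnnb1-ex3 organoids received Noggin and EGF, and WT organoids received Wnt3a and R-spondin1 in addition, so genotype and medium cannot be told apart. The second experiment compared cells carrying a hairpin that silences Prmt1 (sh-Prmt1), an enzyme that methylates arginines in proteins, with cells carrying a scrambled hairpin (sh-scramble). Its libraries are labelled as mouse intestinal organoids, but all their gene identifiers are human, so the genotype, medium and species of that culture are not established here.

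p53 is a transcription factor that is kept scarce by Mdm2, a ubiquitin ligase whose own gene p53 activates, so that the pair form a feedback loop. DNA damage, faults in ribosome assembly and other stresses release p53 from Mdm2. It then raises genes for cell cycle arrest, repair, growth restraint, antioxidant defence and cell death. In the intestinal epithelium p53 is best known for the response of crypt cells to radiation.

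The reference sequences upstream of the mouse genes were read first, because the set is defined by a shared activator. The RefSeq promoter table (GRCm38.p6, 250 bases before to 50 bases after each start) held 7 of the 10 genes, with 9 starts in all. Zmat3, Trp53inp1 and Perp had no entry. p53 binds a motif made of adjacent 10-base units, and each unit is its own reverse complement in consensus form, so that a single search covered both strands. An exact unit stood near a start of 4 genes (Mdm2, Ccng1, Aen and Rps27l), and it stood in 8.36% of all 32851 promoters of this length. A paired site had 20 bases, no spacer and the fixed C and G of each unit, with mismatches allowed only at the other bases. With at most 1 mismatch it stood in 22 of all promoters (0.067%). Ccng1 and Rps27l were among them. Aen held a paired site with 3 mismatches, a limit that 1.38% of all promoters met, and Phlda3 held neither kind. These 4 promoters are shown because they belong to the genes with the most complete sites and to the gene that differed most between Ctnnb1-ex3 and WT organoids; capitals mark the paired site.
Ccng1, chr11:40755237-40755536, minus strand: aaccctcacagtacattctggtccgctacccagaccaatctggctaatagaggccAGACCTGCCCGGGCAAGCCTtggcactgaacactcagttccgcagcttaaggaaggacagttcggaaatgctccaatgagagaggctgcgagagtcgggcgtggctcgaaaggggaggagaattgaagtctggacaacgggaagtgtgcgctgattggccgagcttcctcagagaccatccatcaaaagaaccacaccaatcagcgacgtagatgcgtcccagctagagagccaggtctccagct
Rps27l, second start, chr9:66946163-66946462, plus strand: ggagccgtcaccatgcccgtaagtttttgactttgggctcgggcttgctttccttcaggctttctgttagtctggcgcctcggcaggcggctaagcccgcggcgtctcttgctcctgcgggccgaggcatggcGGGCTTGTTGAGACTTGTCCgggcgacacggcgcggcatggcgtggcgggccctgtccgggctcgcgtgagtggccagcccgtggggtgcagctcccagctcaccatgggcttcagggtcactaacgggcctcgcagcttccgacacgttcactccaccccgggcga
Aen, second start, chr7:78895808-78896107, plus strand: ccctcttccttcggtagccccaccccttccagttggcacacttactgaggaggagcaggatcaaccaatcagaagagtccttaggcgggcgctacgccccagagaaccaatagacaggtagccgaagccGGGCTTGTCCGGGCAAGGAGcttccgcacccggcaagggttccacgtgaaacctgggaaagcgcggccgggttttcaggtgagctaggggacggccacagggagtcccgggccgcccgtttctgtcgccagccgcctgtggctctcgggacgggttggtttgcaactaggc
Phlda3, chr1:135765835-135766134, plus strand: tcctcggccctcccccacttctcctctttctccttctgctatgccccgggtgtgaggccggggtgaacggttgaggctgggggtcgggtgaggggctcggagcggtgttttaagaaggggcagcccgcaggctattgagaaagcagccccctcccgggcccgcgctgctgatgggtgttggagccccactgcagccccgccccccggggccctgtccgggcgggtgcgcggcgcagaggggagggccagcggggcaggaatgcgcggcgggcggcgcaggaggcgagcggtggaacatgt
The paired site ran from base -195 to -176 of the Ccng1 start, from -117 to -98 of the Rps27l start and from -121 to -102 of the Aen start. A match describes these letters and is not a measured binding site, and the absence of one speaks only of this window.

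Libraries of the genotype experiment held 6015933 and 3683169 counts in Ctnnb1-ex3 and 4631527 and 2951887 counts in WT. Salmon assigned 39608249 and 53193449 estimated counts to the sh-Prmt1 libraries and 39736404 and 45888287 to the sh-scramble libraries. PRMT1 itself stood at 2.99 and 3.35 CPM (counts scaled to a common library size) in the sh-Prmt1 libraries, against 37.0 and 34.2 CPM in sh-scramble, which is lower by far more than the replicates differed (log2 fold change -3.48, SE 0.118, edgeR adjusted p = 1.06e-06). Epithelial markers were detected in all libraries, with 12 of 12 tested in each experiment. In the genotype experiment fold changes moved with abundance: the median log2 fold change was 0.63 in the least abundant eighth of the tested genes and -0.44 in the most abundant eighth. Each of the 10 mouse genes is therefore set beside the median of its own abundance class, or beside a refit with an abundance offset, which removes this trend. Nothing in the labels says that the libraries of a group came from separate cultures, so the p-values reflect variation among libraries that may be purely technical.

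In Ctnnb1-ex3 organoids Phlda3 rose and Perp fell, and the other 8 genes did not pass the test. Calls required an adjusted p below 0.05 in edgeR's quasi-likelihood test, with Benjamini-Hochberg adjustment over the 12976 genes that passed the count filter, the 10 genes among them. Thus 1 of 10 was called higher and 1 of 10 lower, beside 20.3% higher, 20.5% lower and 40.8% in either direction among all genes tested. The median log2 fold change of the 10 genes was 0.03, and that of all genes tested was 0.02. The libraries of the groups did not overlap for 8 of the 10 genes, 4 in each direction, a property shared by 73.6% of all genes tested (38.1% higher and 35.6% lower).

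**Figure D1:**
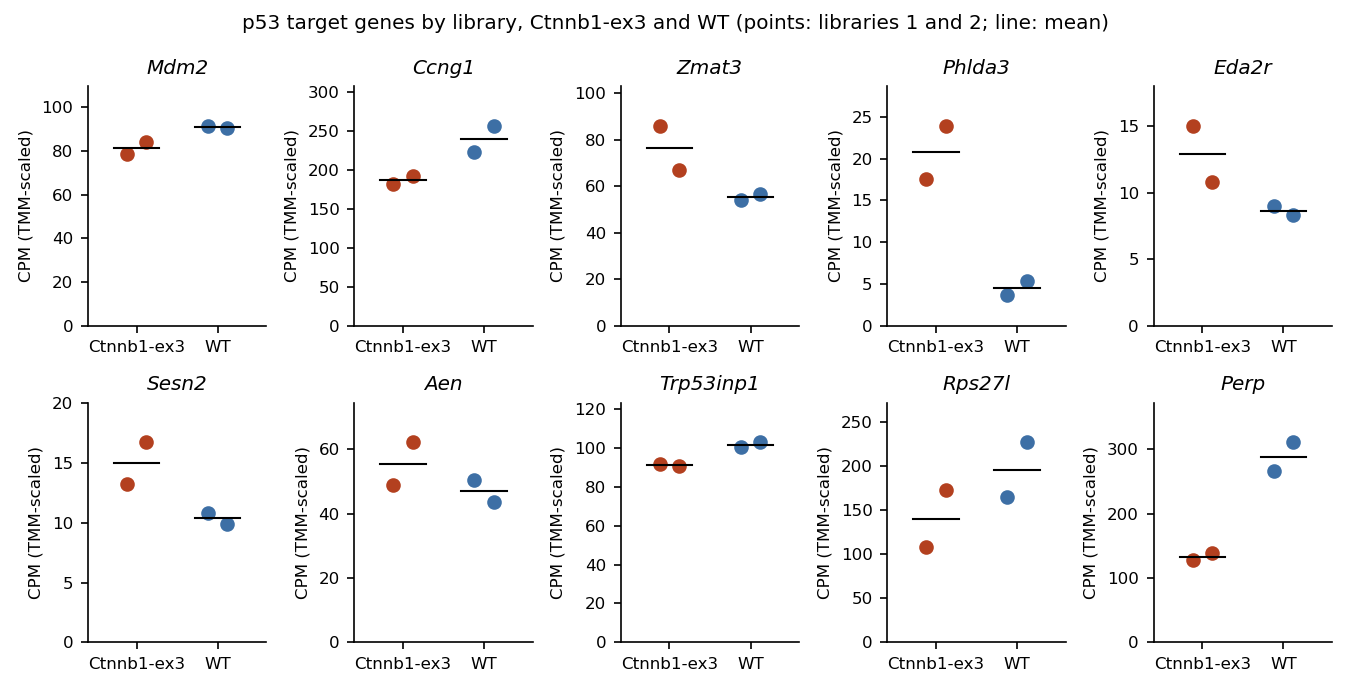
Each panel shows 1 gene, with the group on the x axis and TMM-scaled CPM on the y axis; points are libraries 1 and 2 and the line is their mean. Phlda3 stood at 17.6 and 23.9 CPM in Ctnnb1-ex3 against 3.68 and 5.33 CPM in WT, and Perp at 127 and 139 CPM in Ctnnb1-ex3 against 267 and 310 CPM in WT.

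Phlda3 (chr1:135766119-135769136, GRCm38, plus strand) encodes a small protein with little more than a lipid-binding pleckstrin homology domain, which competes with the kinase Akt for membrane lipids and so restrains growth signalling. It had 117 and 93 counts in the Ctnnb1-ex3 libraries, against 16 and 14 counts in the WT libraries. On the TMM-scaled CPM scale its level was 20.7 ± 4.46 in Ctnnb1-ex3 and 4.50 ± 1.16 in WT (SD, n = 2 each). Both Ctnnb1-ex3 libraries lay above both WT libraries. The difference was 4.65-fold (log2 fold change 2.22, SE 0.433, edgeR adjusted p = 0.00553). The median log2 fold change of genes as abundant as Phlda3 was 0.59, and with the abundance offset Phlda3 was still called (1.68, edgeR adjusted p = 0.0179). Leaving out 1 library at a time gave 1.92 to 2.46, and Phlda3 and Perp were called under every alternative that was run. The authors' deposited table lists 2.20 with an adjusted p of 4.16e-05.

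Perp (chr10:18845020-18857073, plus strand) encodes a tetraspan membrane protein of desmosomes, the junctions that hold epithelial cells together. Its level was 127 and 139 CPM in Ctnnb1-ex3, against 267 and 310 CPM in WT. Both Ctnnb1-ex3 libraries were below both WT libraries, and the means were 133 ± 8.08 in Ctnnb1-ex3 and 289 ± 30.8 CPM in WT (SD, n = 2 each). The log2 fold change was -1.12 (SE 0.162, edgeR adjusted p = 0.00155), while genes of the same abundance had a median of -0.44. With the abundance offset it was -0.73 (edgeR adjusted p = 0.00221). The authors' deposited table lists -1.12 with an adjusted p of 3.66e-09.

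Markers of other intestinal cell types differed in the same libraries. Of 12 markers of the intestinal epithelium as a whole 5 were called lower and 0 higher, with a summed level of 2383 and 3242 CPM in Ctnnb1-ex3 against 3688 and 4631 CPM in WT. Leaving out 1 library gave 1 (without WT replicate 2), 2 (without WT replicate 1), 3 (without Ctnnb1-ex3 replicate 1) and 9 lower (without Ctnnb1-ex3 replicate 2), and the abundance offset gave 1 lower and 1 higher. All 10 enterocyte markers were called lower, with a summed level of 1698 and 1524 CPM in Ctnnb1-ex3 against 5686 and 7106 CPM in WT. Vil1 and Krt20 belong to both lists and were called lower, so the 2 counts are not independent. All 8 crypt base stem cell markers were called higher, with 1757 and 2074 CPM in Ctnnb1-ex3 against 712 and 741 CPM in WT. Their part in the changes of Phlda3 and Perp was not tested. In bulk RNA a changed number of cells of a type and a changed amount of RNA per cell cannot be told apart, in either direction. The higher stem cell markers therefore do not by themselves show more stem cells. Of 12 immune cell markers 4 could be tested, and 0 were called in either direction by edgeR, DESeq2 or limma-voom; by edgeR 0 had an unadjusted p under 0.05. Without Ctnnb1-ex3 replicate 1, 9 could be tested, and 5 were called higher and 2 lower. Their summed level was 16.4 and 78.1 CPM in Ctnnb1-ex3 and 96.2 and 15.2 CPM in WT. Ctnnb1-ex3 replicate 2 held 110 counts of the lymphocyte gene Gzma, while the other 3 libraries stood at 1, the lowest value in this table.

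The feedback genes of p53 differed little between Ctnnb1-ex3 and WT. Mdm2 (chr10:117688875-117710758, minus strand) stood at 78.8 and 84.3 CPM in Ctnnb1-ex3, against 91.4 and 90.5 CPM in WT. The groups did not overlap, but the log2 fold change of -0.16 (SE 0.130, edgeR adjusted p = 0.35) was close to the median of its abundance class, -0.13. Under upper-quartile scaling it was 0.08. Ccng1 (chr11:40748552-40755311, minus strand) encodes cyclin G1, which brings a phosphatase to Mdm2. It stood at 182 and 193 CPM in Ctnnb1-ex3, against 223 and 257 CPM in WT, again without overlap. Its log2 fold change was -0.36 (SE 0.157, edgeR adjusted p = 0.104), its abundance class had a median of -0.44, and the abundance offset brought it to 0.05.

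Sesn2 and Eda2r stood higher in both Ctnnb1-ex3 libraries, by about as much as the median of their abundance class, 0.59 on the log2 scale. Sesn2 (chr4:132492032-132510501, minus strand), whose product senses leucine and restrains the growth kinase complex mTORC1, stood at 13.2 and 16.7 CPM in Ctnnb1-ex3, against 10.8 and 9.89 CPM in WT. Its log2 fold change was 0.52 (SE 0.381, edgeR adjusted p = 0.303) and 0.02 with the abundance offset. An antisense gene, Gm12981, overlaps Sesn2 in GENCODE M21, and reads of the pair cannot be told apart without strand information. Eda2r (chrX:97333840-97377216, minus strand), a receptor of the tumour necrosis factor family that binds ectodysplasin A2, stood at 15.0 and 10.8 CPM in Ctnnb1-ex3, against 8.98 and 8.37 CPM in WT. Its log2 fold change was 0.58 (SE 0.413, edgeR adjusted p = 0.292) and 0.03 with the abundance offset. Both genes rested on 22 to 100 counts per library.

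Zmat3 (chr3:32334792-32366014, minus strand) encodes a zinc finger protein that binds RNA and acts on splicing and RNA stability. It stood at 85.8 and 67.0 CPM in Ctnnb1-ex3, against 54.1 and 56.7 CPM in WT. The groups did not overlap, and the Ctnnb1-ex3 libraries lay further apart than the WT libraries. The log2 fold change was 0.47 (SE 0.170, edgeR adjusted p = 0.0562), the same with the abundance offset, and its abundance class had a median of 0.04. Without Ctnnb1-ex3 replicate 2 Zmat3 was called (0.64, edgeR adjusted p = 0.000527), while without Ctnnb1-ex3 replicate 1 it was 0.27 (edgeR adjusted p = 0.181). Over the alternatives run the adjusted p ranged from 0.000527 to 0.317.

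The remaining genes were Aen, Trp53inp1 and Rps27l. Aen (chr7:78895854-78911209, plus strand), a nuclease that digests nucleic acid in stressed cells, stood at 48.8 and 62.2 CPM in Ctnnb1-ex3, against 50.4 and 43.7 CPM in WT, and the groups overlapped. The log2 fold change was 0.22 (edgeR adjusted p = 0.385), and its abundance class had a median of 0.23. Trp53inp1 (chr4:11156431-11174379, plus strand), which takes part in autophagy and in the activation of p53 by the kinase Hipk2, stood at 91.5 and 90.4 CPM in Ctnnb1-ex3, against 101 and 103 CPM in WT. Its groups did not overlap, but the log2 fold change of -0.16 (edgeR adjusted p = 0.338) was near the -0.13 of its abundance class. Rps27l (chr9:66946086-66949516, plus strand), a p53-induced relative of the ribosomal protein gene Rps27, stood at 108 and 172 CPM in Ctnnb1-ex3, against 165 and 227 CPM in WT. In each group the second library was the higher one, and the groups overlapped. The log2 fold change was -0.48 (SE 0.246, edgeR adjusted p = 0.15), its abundance class had a median of -0.44, and with the abundance offset it was -0.15 (edgeR adjusted p = 0.574). Single libraries moved the value. It was -0.19 without Ctnnb1-ex3 replicate 1 (edgeR adjusted p = 0.412), -0.85 without Ctnnb1-ex3 replicate 2 (edgeR adjusted p = 7e-04), -0.73 without WT replicate 1 (edgeR adjusted p = 0.0917) and -0.26 without WT replicate 2 (edgeR adjusted p = 0.568). The ribosomal protein genes Rpl5 and Rpl11 also stood higher in the second library of each group, at 373 against 245 CPM and 227 against 143 CPM in Ctnnb1-ex3 and at 502 against 349 CPM and 289 against 202 CPM in WT.

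In the sh-Prmt1 libraries genes of the set also changed in both directions. ZMAT3, PHLDA3, SESN2 and PERP rose, RPS27L, MDM2 and CCNG1 fell, AEN and TP53INP1 did not pass the test, and EDA2R was too scarce to be tested. Of the 9 genes tested, 4 were called higher and 3 lower by the same edgeR rule over 18452 genes, beside 20.5% higher, 20.4% lower and 40.9% in either direction among all genes tested. The median log2 fold change of the 9 genes was 0.50, and that of all genes tested was 0.03. The groups did not overlap for any of the 9, with 6 higher and 3 lower, a property shared by 71.1% of all genes tested (36.7% higher and 34.4% lower). ZMAT3, PHLDA3, SESN2, PERP and RPS27L were called under every alternative that was run, while MDM2 and CCNG1 each lost the call under at least 1.

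**Figure D2:**
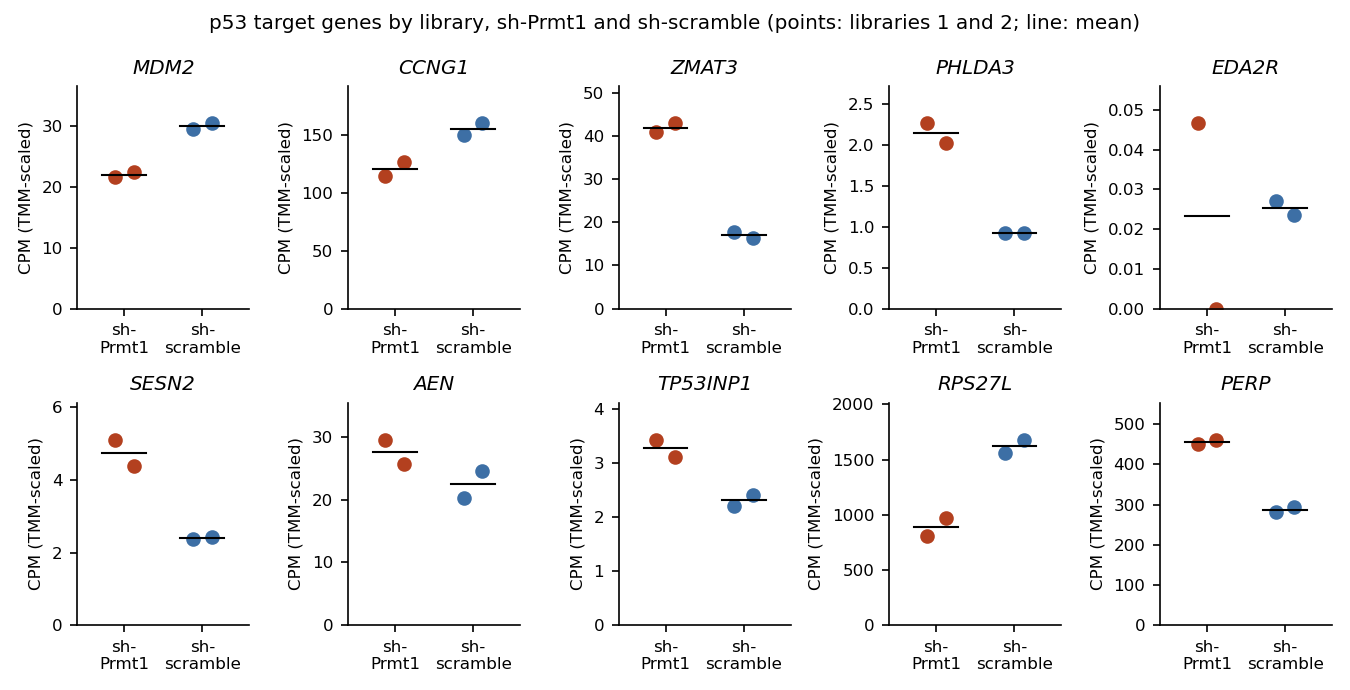
Each panel shows 1 gene, with the group on the x axis and TMM-scaled CPM on the y axis; points are libraries 1 and 2 and the line is their mean. ZMAT3, PHLDA3, SESN2 and PERP lie higher in both sh-Prmt1 libraries, and RPS27L, MDM2 and CCNG1 lie lower; EDA2R rests on 2 counts or fewer in every library.

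ZMAT3, the splicing and RNA stability gene in this set, rose. Its level was 40.9 and 43.0 CPM in sh-Prmt1, against 17.8 and 16.4 CPM in sh-scramble. The sh-Prmt1 libraries lay close together and well above the others, with means of 42.0 ± 1.47 CPM in sh-Prmt1 and 17.1 ± 0.978 CPM in sh-scramble (SD, n = 2 each). The difference was 2.46-fold (log2 fold change 1.30, SE 0.0930, edgeR adjusted p = 1.25e-05).

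PHLDA3 and SESN2, the restrainers of Akt and mTORC1 signalling, rose too. PHLDA3 had 97 and 115 estimated counts in sh-Prmt1, against 34 and 39 in sh-scramble, or 2.27 and 2.02 CPM in sh-Prmt1 against 0.917 and 0.920 CPM in sh-scramble. Its groups did not overlap, and the log2 fold change was 1.22 (SE 0.263, edgeR adjusted p = 0.00478). The authors' deposited table lists PHLDA3 with a log2 fold change of 0.87 and an adjusted p of 0.0523. SESN2 stood at 5.11 and 4.38 CPM in sh-Prmt1, against 2.37 and 2.43 CPM in sh-scramble, again without overlap (log2 fold change 0.98, SE 0.182, edgeR adjusted p = 0.00206).

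PERP, the desmosome gene, stood at 451 and 462 CPM in sh-Prmt1, against 282 and 293 CPM in sh-scramble. Both sh-Prmt1 libraries were above both sh-scramble libraries, and the replicates of each group lay close together. The log2 fold change was 0.67 (SE 0.0869, edgeR adjusted p = 0.000266). The direction was opposite to that of Perp in Ctnnb1-ex3 organoids; the difference between the experiments was not tested, because they are separate tables.

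RPS27L fell to 806 and 974 CPM in sh-Prmt1, against 1564 and 1681 CPM in sh-scramble. Every sh-Prmt1 value was below every sh-scramble value, with means of 890 ± 118 CPM in sh-Prmt1 and 1623 ± 83.1 CPM in sh-scramble (SD, n = 2 each). The log2 fold change was -0.87 (SE 0.114, edgeR adjusted p = 0.000274), and the most abundant eighth of genes, to which it belonged, had a median of -0.17. With the abundance offset it was -0.57 (edgeR adjusted p = 0.00229). Its close relative RPS27 fell as well (log2 fold change -0.55, edgeR adjusted p = 0.00261), though not past the threshold with that offset (-0.22, edgeR adjusted p = 0.12). How reads shared by such related genes were divided is not given in the sources used here.

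The feedback genes fell by less. MDM2 stood at 21.6 and 22.5 CPM in sh-Prmt1, against 29.5 and 30.5 CPM in sh-scramble, without overlap (log2 fold change -0.44, SE 0.0892, edgeR adjusted p = 0.00323). On log2(TPM + 1), where TPM is the length-corrected abundance, its difference was -0.34 (limma adjusted p = 0.0589). CCNG1 stood at 115 and 127 CPM in sh-Prmt1, against 150 and 160 CPM in sh-scramble, also without overlap (log2 fold change -0.36, SE 0.0904, edgeR adjusted p = 0.0105). Its call was lost on log2(TPM + 1) (-0.12, limma adjusted p = 0.40), with an effective length offset (-0.28, edgeR adjusted p = 0.0526), with the abundance offset (-0.21, edgeR adjusted p = 0.0857) and without sh-Prmt1 replicate 1 (-0.30, edgeR adjusted p = 0.0788).

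AEN stood at 29.6 and 25.7 CPM in sh-Prmt1, against 20.3 and 24.6 CPM in sh-scramble, with the nearest libraries of the groups almost touching (log2 fold change 0.30, SE 0.118, edgeR adjusted p = 0.0716). Without sh-scramble replicate 2 it was called (0.43, edgeR adjusted p = 0.0195), while it was 0.12 without sh-scramble replicate 1 (edgeR adjusted p = 0.566) and 0.18 without sh-Prmt1 replicate 1 (edgeR adjusted p = 0.368). TP53INP1 stood at 3.43 and 3.12 CPM in sh-Prmt1, against 2.21 and 2.41 CPM in sh-scramble (log2 fold change 0.50, SE 0.196, edgeR adjusted p = 0.0671). EDA2R had 2 and 0 estimated counts in sh-Prmt1 and 1 in each sh-scramble library, which is under the floor of 3 counts, so no fold is given.

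**Figure D3:**
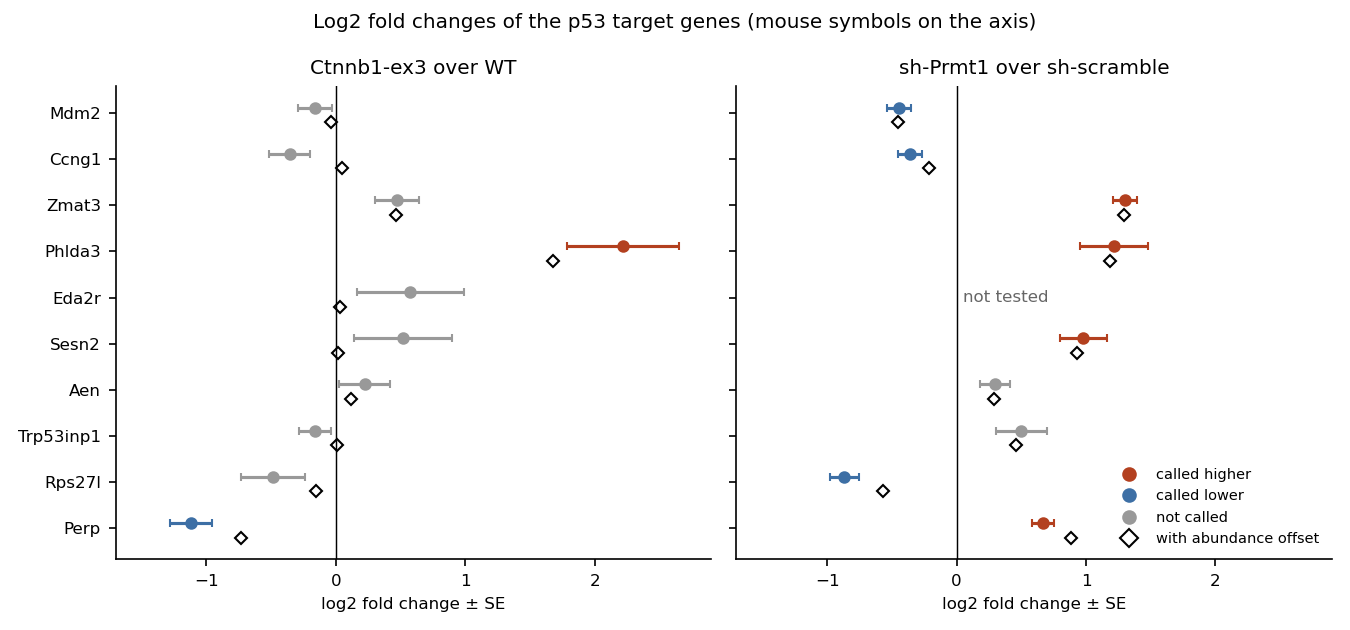
Log2 fold change of each gene on the x axis, for Ctnnb1-ex3 over WT on the left and sh-Prmt1 over sh-scramble on the right; filled points with bars are the edgeR estimate ± SE and open diamonds the value with the abundance offset. Phlda3 lies right of 0 in both panels (2.22 and 1.22), and Perp lies left of 0 in the first and right of 0 in the second (-1.12 and 0.67).

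**Figure D4:**
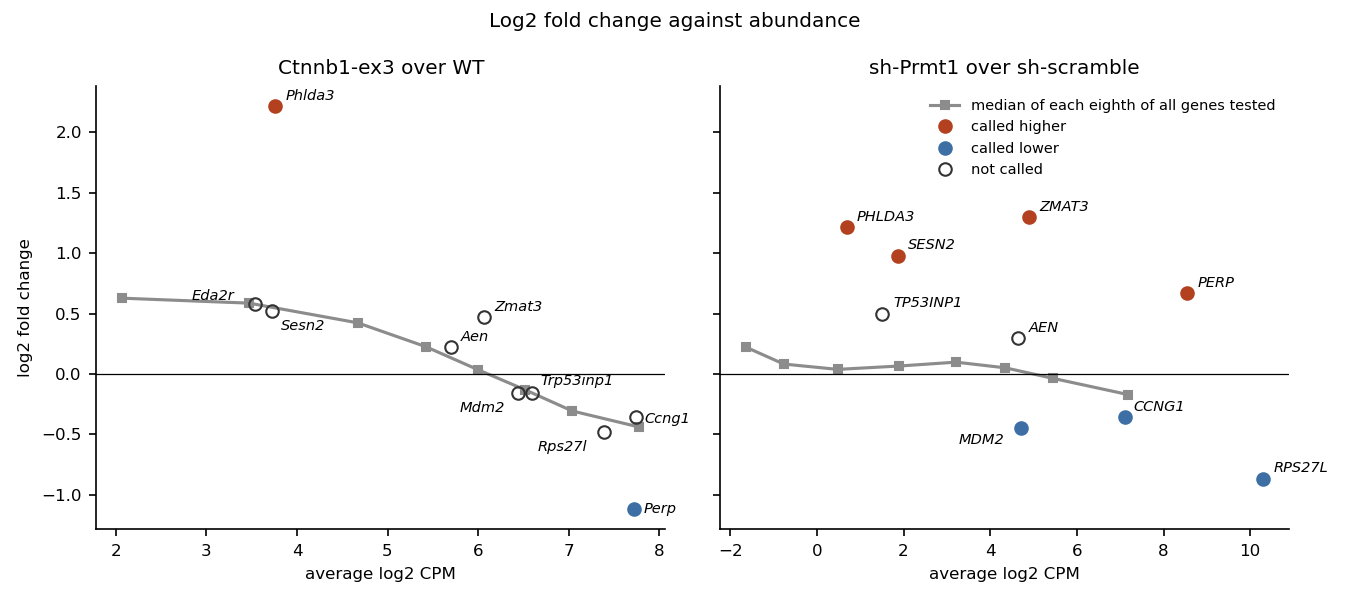
Log2 fold change on the y axis against average log2 CPM on the x axis, with grey squares for the median of each eighth of all genes tested. In the left panel most genes that were not called lie close to the falling grey line while Phlda3, Perp and Zmat3 lie away from it; in the right panel the grey line runs from 0.22 to -0.17 and the called genes lie on either side of it.

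Because the knockdown files give TPM, levels of different genes could be set beside each other there. RPS27L was the most abundant, at 871 and 979 TPM in sh-Prmt1 against 1451 and 1649 TPM in sh-scramble. PERP averaged 57.8 ± 2.00 TPM in sh-Prmt1 and 33.3 ± 1.73 TPM in sh-scramble, and CCNG1 averaged 41.4 ± 0.814 TPM in sh-Prmt1 and 45.2 ± 0.551 TPM in sh-scramble (SD, n = 2 each). PERP thus stood above CCNG1 in both sh-Prmt1 libraries and below it in both sh-scramble libraries. The order of the rest was the same in both groups. MDM2 followed at 11.2 ± 0.796 TPM in sh-Prmt1 and 14.4 ± 0.0548 TPM in sh-scramble, and AEN at 7.84 ± 1.15 TPM in sh-Prmt1 and 5.53 ± 0.945 TPM in sh-scramble. ZMAT3 averaged 2.33 TPM in sh-Prmt1 and 0.869 TPM in sh-scramble. The least abundant were SESN2 (1.55 TPM in sh-Prmt1 and 0.670 TPM in sh-scramble), PHLDA3 (0.754 TPM in sh-Prmt1 and 0.280 TPM in sh-scramble), TP53INP1 (0.274 TPM in sh-Prmt1 and 0.176 TPM in sh-scramble) and the nearly undetected EDA2R. Within a group, the libraries of neighbours in this order did not overlap.

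The abundance-weighted mean transcript length, which Salmon reports per gene, gave a second readout of the same libraries. Among 13706 genes whose length varied, limma, the only tool run on it, called 0 longer and 0 shorter at an adjusted p under 0.05, and 2021 had an unadjusted p under 0.05. CCNG1 transcripts averaged 1280 and 1275 bases in sh-Prmt1, against 1315 and 1427 bases in sh-scramble, a change of -6.75% (limma adjusted p = 0.524). MDM2 averaged 1044 and 1099 bases in sh-Prmt1, against 997 and 1057 bases in sh-scramble, with overlap between the groups (limma adjusted p = 0.72). RPS27L differed by 1.59% (limma adjusted p = 0.445). Lengths of ZMAT3, AEN and TP53INP1 differed by less than 0.3%, with limma adjusted p of 0.966, 0.963 and 0.991. PHLDA3, SESN2 and PERP each had a single length in all libraries. EDA2R lengths, at 3429 and 2826 bases in sh-Prmt1 and 957 bases in each sh-scramble library, rest on 2 counts or fewer.

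Epithelial markers differed between the knockdown libraries too, with 5 of 12 called higher and 1 lower and a summed level of 5026 and 4841 CPM in sh-Prmt1 against 3983 and 3928 CPM in sh-scramble. Among all genes tested 20.5% were called higher and 20.4% lower. With the abundance offset 8 epithelial markers were higher and 1 lower. Of the 7 enterocyte markers tested 1 was called higher and 2 lower. On log2(TPM + 1) the enterocyte counts were 1 higher and 0 lower, and with the abundance offset 2 higher and 1 lower. Of the 6 crypt base stem cell markers tested 3 were lower and the others were not called. With the abundance offset 1 was higher and 3 were lower. Among 12 immune cell markers 4 could be tested and CD68 and LYZ were called higher, while DESeq2 called 1 higher. These calls alone do not show that immune cells were present. The immune markers summed to 7.94 and 6.99 CPM in sh-Prmt1 and 4.53 CPM in each sh-scramble library, with GZMA at 0 in all 4. The part of these markers in the changes above was not tested.

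Trp53, the gene of p53 itself, was called higher in Ctnnb1-ex3, at 149 and 200 CPM against 109 and 98.5 CPM in WT (log2 fold change 0.75, edgeR adjusted p = 0.0122), and with the abundance offset it was 1.02 (edgeR adjusted p = 0.00165). Its call was lost without WT replicate 1 (0.79, edgeR adjusted p = 0.06) and without WT replicate 2 (0.66, edgeR adjusted p = 0.0898), with folds of similar size. Cdkn1a, the cell cycle inhibitor p21, was called lower in Ctnnb1-ex3, at 169 and 206 CPM against 273 and 326 CPM in WT (-0.68, edgeR adjusted p = 0.0188). It was not called with the abundance offset (-0.26, edgeR adjusted p = 0.111) or under upper-quartile scaling (-0.44, edgeR adjusted p = 0.0602). Leaving out 1 library gave -0.83 to -0.55, and the call was also lost without WT replicate 2 (-0.56). CDKN1A was called higher in sh-Prmt1, at 42.6 and 39.5 CPM against 31.1 and 30.9 CPM in sh-scramble (0.40, edgeR adjusted p = 0.00466). Prmt1 was called higher in Ctnnb1-ex3, at 51.2 and 32.4 CPM against 10.1 and 11.4 CPM in WT (1.97, edgeR adjusted p = 0.00287; 1.55 with the abundance offset). Ctnnb1 missed the threshold in Ctnnb1-ex3 (-0.59, edgeR adjusted p = 0.0504), and was -0.13 with the abundance offset and -0.36 under upper-quartile scaling. It was called lower by DESeq2 (DESeq2 adjusted p = 0.0024) and limma-voom (limma adjusted p = 0.0494). No filter and a replicate block also called it (edgeR adjusted p = 0.008 and 0.00048). CTNNB1 was called lower in sh-Prmt1 (-0.72, edgeR adjusted p = 0.00549), but not on log2(TPM + 1) (-0.53, limma adjusted p = 0.135).

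Other p53 targets were 32 genes, including Cdkn1a and the apoptosis genes, with called genes in both directions. Among all genes tested, 20.3% were called higher and 20.5% lower in Ctnnb1-ex3. In sh-Prmt1 these shares were 20.5% and 20.4%. Of 29 tested in Ctnnb1-ex3, 6 rose and 8 fell, and their median was -0.07; with the abundance offset 3 rose and 7 fell, 2 rose without WT replicate 1 or without WT replicate 2, 10 rose without Ctnnb1-ex3 replicate 2, and under upper-quartile scaling 9 rose and 5 fell. Among called genes the largest rises were those of the stress cytokine Gdf15 (1.25) and the kinase Plk2 (1.20). The cell cycle gene Gtse1 (1.10) and the glutaminase Gls2 (1.05) followed. Gdf15 and Gls2 lost the call with the abundance offset (edgeR adjusted p = 0.0869 and 0.156). The largest falls were those of the death receptor Fas (-5.05), the apoptosis gene Pmaip1 (-1.48), the Sesn2 relative Sesn1 (-1.31) and the p53 ubiquitin ligase Rchy1 (-1.11). In sh-Prmt1 11 of 31 tested rose and 6 fell, with a median of 0.04; without sh-Prmt1 replicate 1, as by DESeq2, 7 rose and 6 fell. The rises were led by the antiproliferative gene BTG2 (2.20), the death receptor gene TNFRSF10B (1.35), the lipid transfer gene PLTP (1.34) and the mitochondrial reductase FDXR (1.01). The falls were led by GLS2 (-1.14), the DNA repair gene DDB2 (-0.72), GTSE1 (-0.63) and the mitotic gene CKAP2 (-0.45). SESN1 rose in sh-Prmt1 (0.67), unlike Sesn1 in Ctnnb1-ex3.

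Genes that act on p53 formed a list of 19, Trp53 included. In Ctnnb1-ex3 7 of 16 tested rose and 0 fell, beside 20.3% higher and 20.5% lower among all genes tested, and their median was 0.36 on the log2 scale. The count rested on single libraries, with 2 higher and 0 lower without WT replicate 2 and 8 higher and 3 lower without Ctnnb1-ex3 replicate 2; a replicate block also gave 8 higher and 3 lower. DESeq2 and limma-voom, like edgeR, called 0 lower, and 1 of the 16 was lower at an unadjusted p under 0.05 in each tool. The largest rises were those of the checkpoint kinases Chek1 (1.29) and Atr (0.90), the damage sensor Trp53bp1 (0.96) and the kinase Hipk2 (0.87). In sh-Prmt1 5 of 17 tested rose and 6 fell, with a median of 0.08; without sh-Prmt1 replicate 1 or without sh-scramble replicate 1, 3 rose and 6 fell. Among all genes tested in sh-Prmt1, 20.5% were called higher and 20.4% lower. CDKN2A, which encodes an inhibitor of MDM2 and an inhibitor of cyclin-dependent kinases, rose by 2.21 on the log2 scale. It stood at 2.34 and 2.82 CPM in sh-Prmt1 against 0.674 and 0.448 CPM in sh-scramble. CREBBP (0.68), TP53BP1 (0.44) and the MDM2-binding ribosomal protein gene RPL11 (0.29) also rose. RPL5, whose protein also binds MDM2, fell (-1.20), as did PRMT5 (-0.98), another arginine methyltransferase, which modifies p53. ATM (-0.78) and HIPK2 (-0.77) fell as well.

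Relatives of the set were 18 genes, also with called genes in both directions. They included Eda, which encodes the ligand ectodysplasin A and is not a sequence relative of Eda2r. Sesn1 is also among the other p53 targets and Mdm4 among the genes that act on p53, so the counts of these lists are not independent. The shares among all genes tested were 20.3% higher and 20.5% lower in Ctnnb1-ex3. They were 20.5% higher and 20.4% lower in sh-Prmt1. In Ctnnb1-ex3 2 of 15 tested rose, Phlda1 (1.82) and Sesn3 (1.71), and 3 fell, the Perp relative Pmp22 (-3.61), Sesn1 (-1.31) and Trp53inp2 (-1.08). Without Ctnnb1-ex3 replicate 1 the counts were 5 higher and 5 lower of 16 tested. Pmp22 was scarce, at 0.15 and 0.771 CPM in Ctnnb1-ex3 against 2.76 and 7.99 CPM in WT. It had 1 and 3 counts in Ctnnb1-ex3 against 12 and 21 in WT. The Ctnnb1-ex3 counts were at or under the floor of 3 counts, so the size of its fold is not reliable. In sh-Prmt1 5 of 15 tested rose, TP53INP2 (1.26), the AEN relatives ISG20 (0.99) and ISG20L2 (0.49), SESN1 (0.67) and ZMAT2 (0.33), and 5 fell, PHLDA2 (-1.84), ZMAT5 (-0.68), PHLDA1 (-0.66), the MDM2 relative MDM4 (-0.57) and RPS27 (-0.55). PHLDA3 and its relatives thus differed in direction in sh-Prmt1, where PHLDA1 stood at 137 and 152 CPM in sh-Prmt1 against 219 and 238 CPM in sh-scramble.

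**Figure D5:**
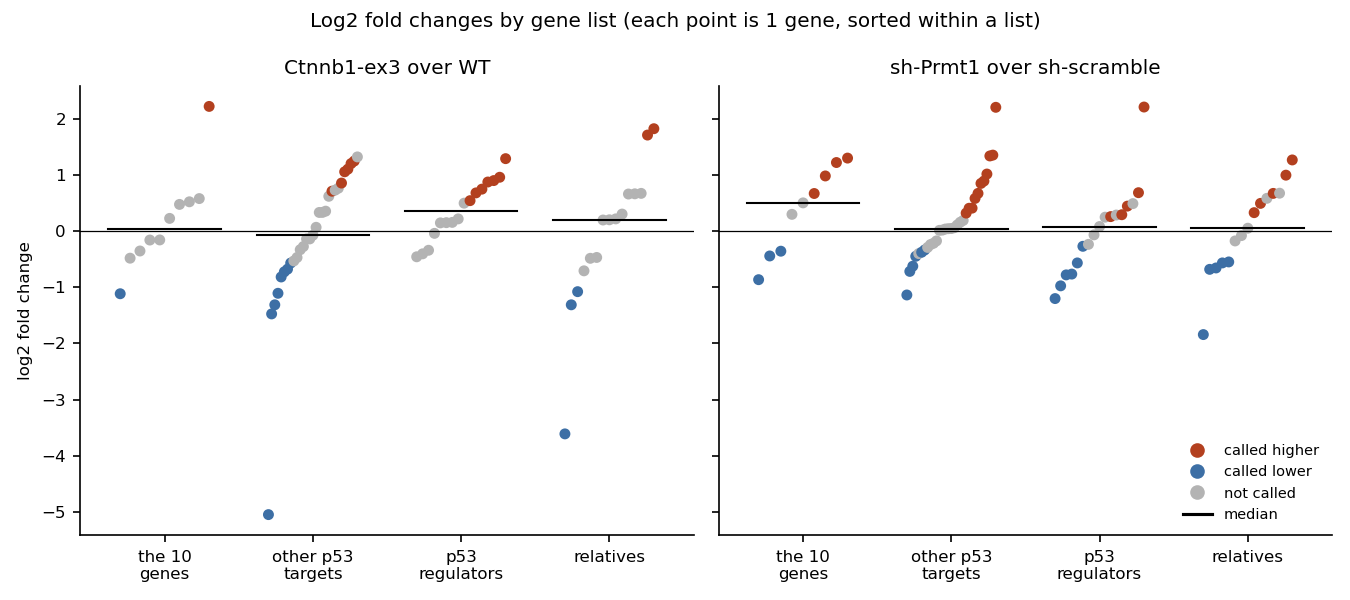
Each point is the log2 fold change of 1 tested gene, sorted within its list on the x axis, for Ctnnb1-ex3 over WT on the left and sh-Prmt1 over sh-scramble on the right; black lines are list medians. The median is 0.03 over the 10 genes on the left and 0.50 over the 9 genes tested on the right. Among the p53 regulators in Ctnnb1-ex3 7 rose and 0 fell. That count changed to 8 and 3 with a replicate block and also moved when single libraries were left out. Called genes of the other lists drawn lie on both sides of 0. Sesn1 and Mdm4 are drawn under both lists to which each belongs.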

How the data were processed

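Libraries were grouped by their titles. For the genotype experiment the authors deposited whole-number counts per mouse symbol; the lowest value is 1. For the knockdown the authors deposited, per the file headers, Salmon output with estimated counts, TPM and lengths per human gene. The authors also deposited a comparison per experiment, giving log2 fold change and adjusted p-value. The submitters' processing notes name mm10, Salmon and DESeq2 without roles; the sources used here give no aligner, human build or version.

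The experiments were fitted separately (edgeR 4.0.16, R 4.3.3, TMM scaling, filterByExpr, two-sided quasi-likelihood test, Benjamini-Hochberg adjustment over all genes tested). Estimated counts were rounded first. Genes below the filter were not tested. Levels are TMM-scaled CPM, and folds are relative to what most genes did. Transcript lengths were tested with limma 3.58.1 on log2 length. Alternatives used DESeq2 1.42.0, limma-voom, upper-quartile factors, no filter, 1 taken away from every mouse count, log2(TPM + 1) with a pseudocount of 1, an effective length offset, a replicate block, leaving out each library and, chosen after seeing the data, an offset for the trend of fold change with abundance (loess). The edgeR script was tested on simulated data. Variation between replicates (biological coefficient) came to 0.171 for genotype and 0.105 for knockdown. Depth limits precision for genes of few counts, and the floor of 3 counts covers counting error only.

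The 10 genes and the gene lists were chosen with earlier results of these data known. Named are all 10 genes, Trp53, Cdkn1a, Ctnnb1, Prmt1, up to 4 called genes per direction and list with the largest fold, and every called relative. A knockdown value that this rule covers is not reported here. Rpl5, Rpl11, Gm12981, Gzma, CD68, LYZ and GZMA were named after their values were seen. Of the list genes, 3 were matched to mouse symbols through RefSeq synonyms.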

Additional observations from a re-analysis of the deposited data

How the results depend on the processing

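Over all genes, Ctnnb1-ex3 against WT gave 2637 higher and 2654 lower; upper-quartile scaling gave 3725 higher and 1752 lower and moved the median log2 fold change of all genes to 0.26. Leaving out 1 library gave 1110 to 4008 higher and 1524 to 3749 lower. Among the 10 genes 1 was higher and 1 lower. Upper-quartile scaling gave 2 higher (Zmat3 added) and no filter gave 2 lower (Rps27l added). Leaving out 1 library gave 1 to 2 higher and 1 to 2 lower. Mdm2 turned to 0.076 and Trp53inp1 to 0.079 under upper-quartile scaling, and Ccng1 turned to 0.047 and Trp53inp1 to 0.0065 with the abundance offset; none of these was called.

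In sh-Prmt1 against sh-scramble, 3789 genes were higher and 3765 lower; DESeq2 gave 2508 higher and log2(TPM + 1) gave 1985 lower. Leaving out 1 library gave 2678 to 3109 higher and 3123 to 3784 lower. Of the 10 genes log2(TPM + 1) called 1 lower instead of 3, and leaving out 1 library gave 4 to 5 higher and 2 to 3 lower.

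Whether replicate numbers pair the libraries is not settled here. The correlation over genes of the replicate deviations between groups was 0.0882 for Ctnnb1-ex3 and WT. It was -0.0923 for sh-Prmt1 and sh-scramble. A low correlation over all genes cannot exclude pairing, because counting noise also lowers it. With a replicate block the genotype experiment gave 2981 higher and 3503 lower, with 2 of the 10 genes higher (Zmat3 added) and 3 lower (Ccng1 and Rps27l added), and the knockdown experiment gave 3527 higher and 3578 lower, with 4 and 3 of the 10 genes. Values of single genes were counted over all alternatives, for the 10 genes with Trp53, Cdkn1a, Ctnnb1 and Prmt1, those named above included. Of these, 133 for Ctnnb1-ex3 and 146 for sh-Prmt1 kept their direction and their side of the threshold. A call was lost by 5 and 6 and gained by 12 and 4, and 4 and 0 changed direction. The calls lost in Ctnnb1-ex3 were those of Trp53 and Cdkn1a. Except where a value or the construction of an alternative shows it, the cause was not tested. WT counts of Phlda3, at 14 to 16, and the 2 libraries per group limit precision.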
